A study of Ovis aries with 6 samples.

Results

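INSL3 (insulin-like peptide 3) and RXFP2 (its receptor) were followed in single-cell transcriptomes of the ovaries of 6 Hu ewes, a prolific Chinese sheep breed. They are 2 of the 30574 genes in the deposited count matrices, were matched by symbol, and were both found. One library per ewe was made from an ovary taken at estrus, with 3 ewes in the HLS group, labelled with a litter size of 3 or more, and 3 in the LLS group, labelled with a litter size under 2. No ewe was treated, no allele is stated for any ewe, and the labels give no age. Dissociated cells were counted with the droplet-based Chromium 3' v3 assay, in which a droplet barcode marks the cell and a unique molecular identifier (UMI) marks each molecule.

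INSL3 is a peptide hormone of the relaxin family that theca interna cells of growing follicles make together with androgens, and that Leydig cells make in the testis. RXFP2 is a G protein-coupled receptor that raises cyclic AMP when INSL3 binds. In the follicle INSL3 is known as a factor from the theca that acts on steroid synthesis and on the oocyte, and in the fetal male the pair is known for the descent of the testis.

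After the quality limits of the study and removal of called doublets, 36457 of 52290 deposited barcodes were retained, 5189 to 7096 per ewe, with a median of 5192 to 9919 UMI per cell. Cells were clustered without INSL3 and RXFP2, and the 30 clusters were named from marker genes that left out both, so that neither gene chose the cells it was read in. Theca-like cells were 1 cluster of 1863 cells, 5.11% of those retained. It was led by LHCGR, the luteinizing hormone receptor, and CYP17A1, the enzyme that makes androgens, and LHCGR reached 9.39 ± 2.36 UMI per 10000 UMI there against 0.480 ± 0.211 in stromal-like and 0.0357 ± 0.0153 in endothelial-like cells (SD, n = 6 ewes). Both genes are among the theca markers whose score named the cluster, so their levels are not separate evidence for the name. No oocyte cluster was found. Any pair of libraries shared 13 to 28 barcodes, at most 0.320% of the smaller library. The intervals given for single counts and shares cover counting error only.

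INSL3 was concentrated in theca-like cells. Of the 9041 INSL3 UMI in retained cells, 8147 (90.1%) lay in theca-like cells, and the share per ewe was 89.6%, 94.2% and 87.3% in HLS ewes 1, 2 and 3 and 94.6%, 91.6% and 85.3% in LLS ewes 1, 2 and 3. In each of the 6 ewes theca-like cells held the bulk of the INSL3 UMI. Over the 6 ewes the share was 90.5% ± 3.73 (SD). HLS ewe 1 alone gave 5037 of the 9041 UMI, and the mean share of the other 5 ewes was 90.6% ± 4.15.

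In theca-like cells INSL3 reached 9.14, 2.22 and 1.39 UMI per 10000 UMI in HLS ewes 1, 2 and 3 and 4.10, 2.18 and 0.821 in LLS ewes 1, 2 and 3. HLS ewe 1 stood above the rest, LLS ewe 1 came next, and the other 4 ewes of both groups were interleaved. The mean was 3.31 ± 3.06 (SD, n = 6), so the spread between ewes was close to the mean itself.

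Every other named cell type lay far below. The mean INSL3 level over ewes was 0.239 ± 0.372 UMI per 10000 UMI in cycling cells, 0.0389 ± 0.0595 in stromal-like, 0.0242 ± 0.0218 in perivascular-like, 0.0162 ± 0.0296 in immune-like, 0.0160 ± 0.0145 in granulosa-like and 0.00696 ± 0.00946 in endothelial-like cells (SD, n = 6). Schwann-like, epithelial-like and B cell-like cells held 1 INSL3 UMI each. On the scale of log2(CPM + 1), where CPM is the UMI of a gene per 1000000 UMI, theca-like cells exceeded cycling cells by 4.54 ± 2.23 (SD), granulosa-like cells by 6.74 ± 0.58 and endothelial-like cells by 7.31 ± 0.93, each in 6 of 6 ewes. For these 3 and for stromal-like, perivascular-like, immune-like and B cell-like cells the two-sided exact sign-flip test over ewes gave p = 0.03125, the smallest that 6 ewes allow, and an adjusted p of 0.0402 over the 9 types compared. With 5 and 4 ewes, Schwann-like and epithelial-like cells could not reach the threshold.

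Below theca-like cells the order was cycling, stromal-like, perivascular-like, immune-like, granulosa-like, Schwann-like, endothelial-like, epithelial-like and B cell-like. The 4 unnamed clusters (1265 cells) were left out of the order and had 0.0552 ± 0.0604 UMI per 10000. Cycling cells exceeded stromal-like cells in 5 of 6 ewes (log2 difference 1.66 ± 1.25, SD, exact sign-flip p = 0.0625, adjusted p = 0.281), and the p of the other neighbours in that part of the order ran from 0.188 to 1. None passed the threshold, which the pairs with 4 or 5 ewes could not reach. Theca-like against cycling cells, at the smallest exact sign-flip p of 0.03125, had an adjusted p of 0.281 among these neighbour pairs. Among the types compared with theca-like cells above, it was 0.0402. A single pair with 6 ewes could therefore not pass among the neighbours by itself.

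**Figure D1:**
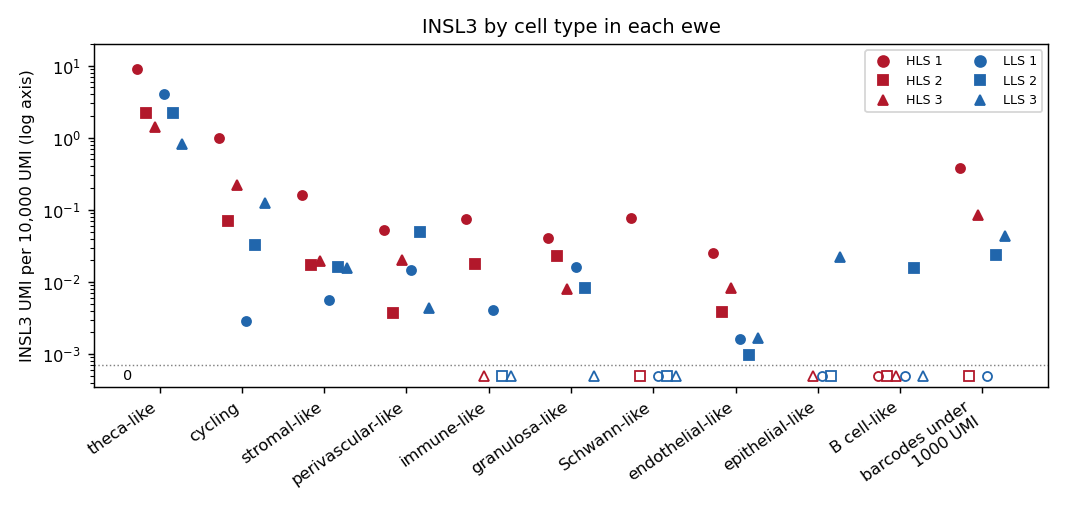
INSL3 level in each cell type and ewe, in UMI per 10000 UMI on a log axis. Each point is 1 ewe with at least 10 cells of the type, red for HLS and blue for LLS, and open points under the dotted line are levels of 0. Theca-like cells run from 0.821 to 9.14, and the highest other value is 0.981 in the cycling cells of HLS ewe 1.

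Most theca-like cells carried the transcript. An INSL3 UMI was found in 79.6%, 67.7% and 60.1% of theca-like cells in HLS ewes 1, 2 and 3 and in 63.1%, 45.7% and 43.7% in LLS ewes 1, 2 and 3, or in 58.7% of all 1863 (exact 95% interval 56.4% to 60.9%), at a median of 14376 UMI per cell. Endothelial-like cells, which are not known to make INSL3, had a UMI in 105 of 14246 cells (0.737%, exact 95% interval 0.603% to 0.892%) at a median of 8886 UMI. When each cell was thinned to 1000 UMI the shares were 15.1% and 0.0491%.

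INSL3 UMI were unevenly spread among theca-like cells. The top 10% of cells by INSL3 count held 64.8% of the INSL3 UMI of all theca-like cells, and within a single ewe they held 41.0% to 67.8%. Cells were ranked by raw count, and the part of counting error in this spread was not tested. Depth was not matched, and its median ran from 10322 UMI per theca-like cell in LLS ewe 2 to 17528 in HLS ewe 1. At least 30 INSL3 UMI were counted in 44 of the 265 theca-like cells of HLS ewe 1 (16.6%) and in 4 of the 65 of LLS ewe 1 (6.15%), against 1 cell in HLS ewe 2 and 0 in the remaining 3 ewes. Cells without any INSL3 UMI made up 20.4% in HLS ewe 1 and 56.3% in LLS ewe 3. The median among cells with a UMI was 12 UMI in HLS ewe 1, 5 in LLS ewe 1 and 2 or 3 in the others.

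**Figure D2:**
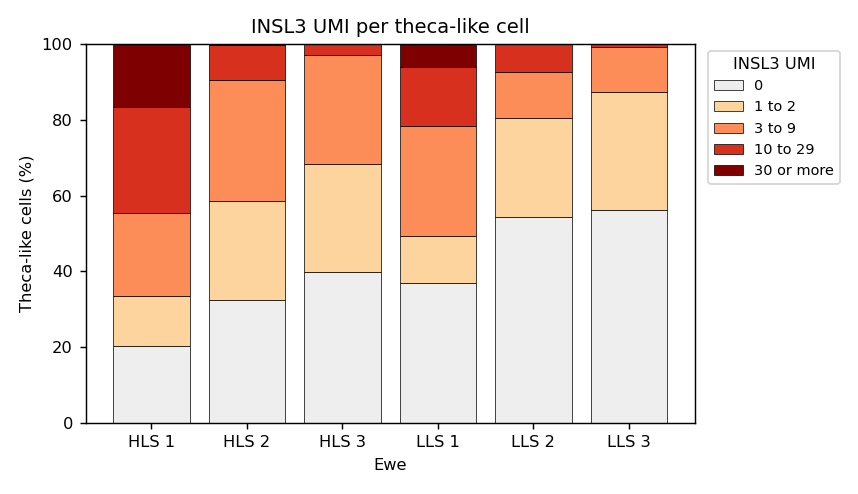
Share of theca-like cells (%, vertical axis) by the number of INSL3 UMI in the cell, for each ewe. HLS ewe 1 and LLS ewe 1 have the largest shares of cells with at least 30 UMI (16.6% and 6.15%), and LLS ewe 3 has the largest share without any (56.3%).

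Cells very rich in INSL3 were found in 2 cell types. A level of at least 10 INSL3 UMI per 10000 UMI was reached by 94 cells, of which 90 were theca-like and 4 were cycling, and 74 of the 94 came from HLS ewe 1. Of the 90 theca-like cells, 83 also had a CYP17A1 UMI and 88 an LHCGR UMI, against 1154 and 1606 of all 1863 theca-like cells. Both genes are among the markers that named this cluster, and depth was not matched. In the other types 0 cells reached this level, among them 0 of 8256 stromal-like and 0 of 2952 granulosa-like cells. The 4 cycling cells held 114 of the 422 INSL3 UMI of cycling cells.

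The cycling cells with INSL3 belonged mostly to 1 of 2 cycling clusters. A cluster of 682 cells led by CENPF and TOP2A, both genes of dividing cells, had 408 INSL3 UMI (0.391 per 10000, exact Poisson 95% interval 0.354 to 0.431) and 0.576 CYP17A1 UMI per 10000. The other cluster of 1115 cells had 14 INSL3 UMI (0.00736 per 10000) and 0.0142 CYP17A1 UMI per 10000. By ewe, cycling cells ran from 0.00286 INSL3 UMI per 10000 in LLS ewe 1 to 0.981 in HLS ewe 1.

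Within the stroma, INSL3 was highest in the cells led by PTCH1, the Hedgehog receptor and target gene, and COL11A1, a collagen. These 2343 cells held 201 of the 261 stromal INSL3 UMI (0.0905 per 10000, exact Poisson 95% interval 0.0784 to 0.104), and 150 of the 201 came from HLS ewe 1. The cluster of 4373 cells led by ACTA2 and TAGLN, genes of contractile cells, had 49 UMI (0.0213 per 10000, 0.0158 to 0.0282) and the 1540 cells led by SERPINF1 and DPT had 0.0124 (0.00621 to 0.0223). In a cluster of 107 cells led by OXT, the oxytocin gene, of which 103 came from LLS ewe 3, INSL3 had 0 UMI (exact Poisson 95% interval up to 0.0317 per 10000). That cluster was not named. The ACTA2 and TAGLN cells had all 7 listed stromal markers detected but 0 of them among their 10 leading genes, so that their name rests on the marker score.

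INSL3 outside theca-like cells has to be read beside free RNA, which droplets take up from broken cells. Barcodes under 1000 UMI, which are too shallow to be retained, had a median of 700 UMI. Whether they were empty droplets or shallow cells was not tested, so their level is not a direct measure of free RNA. They held 72 INSL3 UMI, 60 of them in HLS ewe 1, and their level there was 0.382 UMI per 10000 UMI against 0 to 0.0857 in the other ewes. That ewe also had the highest INSL3 level in stromal-like (0.160), perivascular-like (0.0525), immune-like (0.0749), granulosa-like (0.0408), endothelial-like (0.0255) and cycling cells (0.981 UMI per 10000). Across the 6 ewes the level in retained cells outside the theca-like and cycling clusters followed that over all retained cells with Pearson's r = 0.991 (exact permutation p = 0.00972, adjusted p = 0.0375) and Spearman's rho = 0.886 (exact p = 0.0333, adjusted p = 0.0667), over 6 relations tested. Without the 2 ewes farthest from the median r was 0.691, so that the relation rested largely on those ewes, and both measures share the cells outside the theca. For endothelial-like cells alone the relation to the same level gave r = 0.984 (exact permutation p = 0.0125, adjusted p = 0.0375). Its rho was 0.886 (exact p = 0.0333, adjusted p = 0.0667), and its r was 0.776 without the same 2 ewes. For the barcodes under 1000 UMI the relation to the same level gave r = 0.970 (exact permutation p = 0.0444, adjusted p = 0.0889). Its rho was 0.551 (exact p = 0.272, adjusted p = 0.408), and its r was 0.0767 without the same 2 ewes.

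The ratio of INSL3 to CYP17A1 was also read inside and outside theca-like cells. It cannot separate RNA taken up by a droplet from RNA that a type makes itself, since either gene could have both. INSL3 made up 63.7%, 43.0% and 36.4% of the INSL3 plus CYP17A1 UMI of theca-like cells in HLS ewes 1, 2 and 3 and 49.2%, 78.8% and 14.6% in LLS ewes 1, 2 and 3. In the other retained cells, cycling cells left out, it made up 74.8%, 38.7% and 26.9% in HLS ewes and 45.7%, 45.8% and 11.5% in LLS ewes. Both series put LLS ewe 3 lowest and HLS ewe 1 among the 2 highest (Spearman's rho = 0.943, exact permutation p = 0.0167, adjusted p = 0.0667, Pearson's r = 0.780, exact permutation p = 0.0681, adjusted p = 0.102). Without the 2 ewes farthest from the median of the theca-like share r was 0.995. Neither coefficient passed after adjustment, and the relation did not pass for endothelial-like cells or barcodes under 1000 UMI taken alone. Endothelial-like cells gave r = 0.237 (exact permutation p = 0.653) and rho = 0.143 (exact p = 0.803), and barcodes under 1000 UMI gave r = 0.497 (exact permutation p = 0.311) and rho = 0.464 (exact p = 0.372), with adjusted p from 0.373 to 0.803.

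Single types departed from the theca-like ratio in both directions. In endothelial-like cells of HLS ewe 1 INSL3 was 52.1% of both (73 of 140 UMI, exact 95% interval 43.5% to 60.7%), below the 62.6% to 64.9% of its theca-like cells. In stromal-like cells of the same ewe it was 88.6% (83.7% to 92.5%), and in the PTCH1 cells among them 92.0% (150 of 163 UMI, 86.7% to 95.7%), above the theca-like interval. In LLS ewe 2 the endothelial-like share was 4.35% (1 of 23 UMI, 0.110% to 21.9%) against 78.8% in its theca-like cells. The endothelial-like interval also lay below that of theca-like cells in HLS ewe 2 (13.6% to 39.6% against 41.2% to 44.7%). It did so in LLS ewe 3 as well (1.47% to 13.1% against 13.5% to 15.8%), and overlapped in HLS ewe 3 and LLS ewe 1. Over the 6 ewes, 129 of the 242 endothelial-like CYP17A1 UMI lay in the 2866 cells led by CXCL9 and SELP. Those cells held 14 of the 107 endothelial-like INSL3 UMI. The 4260 cells led by PPP1R1B held 61 INSL3 and 54 CYP17A1 UMI. These counts pool the ewes, which the 2 clusters hold in unlike parts. HLS ewe 1 gave 1541 of the 4260 cells but 240 of the 2866, and LLS ewe 3 gave 1294 and 1335. A difference between these clusters can therefore not be told apart from one between ewes. In the 5 ewes other than HLS ewe 1 the stromal-like interval overlapped that of theca-like cells. How much of the INSL3 outside theca-like cells was free RNA was not tested.

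**Figure D3:**
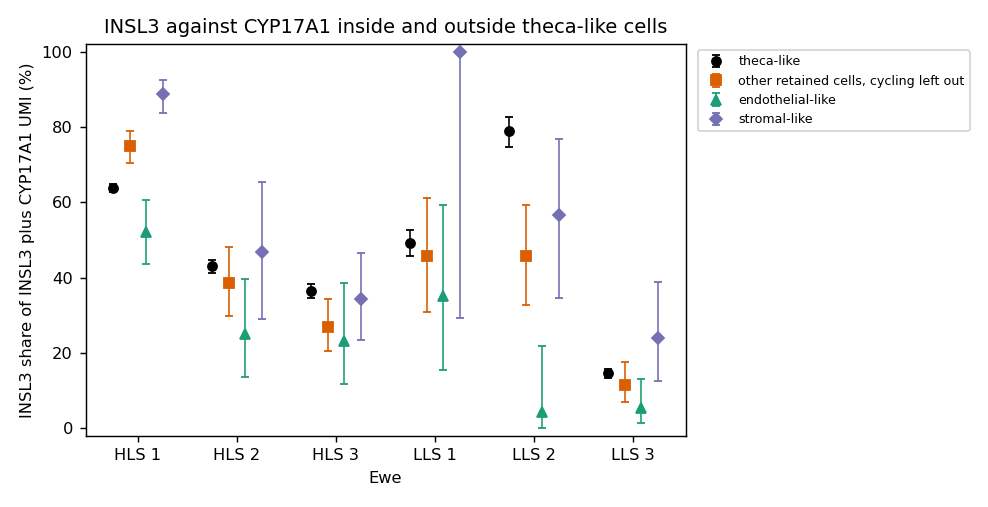
INSL3 as a share of INSL3 plus CYP17A1 UMI (%) in each ewe, for theca-like cells, the other retained cells without cycling cells, endothelial-like and stromal-like cells. Bars are exact 95% binomial intervals. LLS ewe 3 is low in all 4 (14.6% in theca-like cells), and the stromal-like share of HLS ewe 1 (88.6%) lies above its theca-like share (63.7%).

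In granulosa-like cells, which respond to theca factors but are not known to make INSL3, the gene was at the level of these other types. They held 41 INSL3 UMI in 37 of 2952 cells (1.25%, exact 95% interval 0.884% to 1.72%), with 0.0408, 0.0232 and 0.00798 UMI per 10000 in HLS ewes 1, 2 and 3 and 0.0162, 0.00817 and 0 in LLS ewes 1, 2 and 3. When cells were thinned to 1000 UMI the share with INSL3 was 0.169% in granulosa-like cells, 0.336% in the perivascular-like and 0.149% in the immune-like.

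The comparison of HLS with LLS asked whether INSL3 RNA differed between ewes of high and low litter size. In theca-like cells the mean level was 4.25 ± 4.25 UMI per 10000 for the HLS ewes and 2.37 ± 1.65 for the LLS ewes (SD, n = 3), the groups overlapped, and a two-sided exact permutation test gave p = 0.6. The quasi-likelihood test of edgeR on UMI summed per ewe gave a log2 fold change of 1.17 with an SE of 0.76 (adjusted p = 0.978 over 12227 genes). Without HLS ewe 1 the estimate was -0.32, so its direction rested on that ewe. The share of theca-like cells with an INSL3 UMI was 69.1% ± 9.83 in HLS and 50.8% ± 10.6 in LLS (exact permutation p = 0.2), and at 1000 UMI per cell 21.3% ± 14.5 and 13.7% ± 7.23 (exact permutation p = 0.6).

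No gene was called in theca-like cells by edgeR at an adjusted p under 0.05 (0 of 12227, a percentage of 0), while 415 (3.39%) had an unadjusted p under 0.05, and DESeq2 also called 0 with 375 at an unadjusted p under 0.05. For 3 ewes against 3 the smallest exact permutation p is 0.1.

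Summed over all retained cells, INSL3 was higher in each HLS ewe than in any LLS ewe. It reached 89.6, 23.7 and 22.1 CPM in HLS ewes 1, 2 and 3 and 6.51, 10.5 and 12.2 in LLS ewes 1, 2 and 3, with means of 45.1 ± 38.5 and 9.72 ± 2.91 (SD, n = 3, exact permutation p = 0.1). Of the 17944 genes tested, 2.45% lay higher in all HLS ewes, and 8.3% did not overlap in either direction. The log2 fold change was 2.47 with an SE of 0.68 in edgeR (unadjusted p = 0.00793, adjusted p = 0.999). INSL3 thus did not pass among all genes, of which edgeR called 0 with 535 at an unadjusted p under 0.05. DESeq2 gave 2.47 with an adjusted p of 0.0290 over 22465 genes. It was 1 of 10 genes that DESeq2 called higher in HLS beside 78 called lower. Without HLS ewe 1 the edgeR estimate was 1.25.

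That whole-ovary value joins the amount of theca and the level within it. Theca-like cells were 4.91%, 5.78% and 7.81% of retained cells in HLS ewes 1, 2 and 3 and 1.04%, 3.16% and 7.51% in LLS ewes 1, 2 and 3 (exact permutation p = 0.3). They held 10.9% ± 2.64 of all UMI in HLS and 6.18% ± 5.77 in LLS ewes (SD, n = 3, exact permutation p = 0.3). LLS ewe 1 had the second highest INSL3 level in theca-like cells with the smallest theca share, while LLS ewe 3 had a large theca share with the lowest level. Neither component separated the groups, whereas the whole-ovary value did. The share depends on how much theca the sampled ovary held and on how well its cells came apart, which were not tested.

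**Figure D4:**
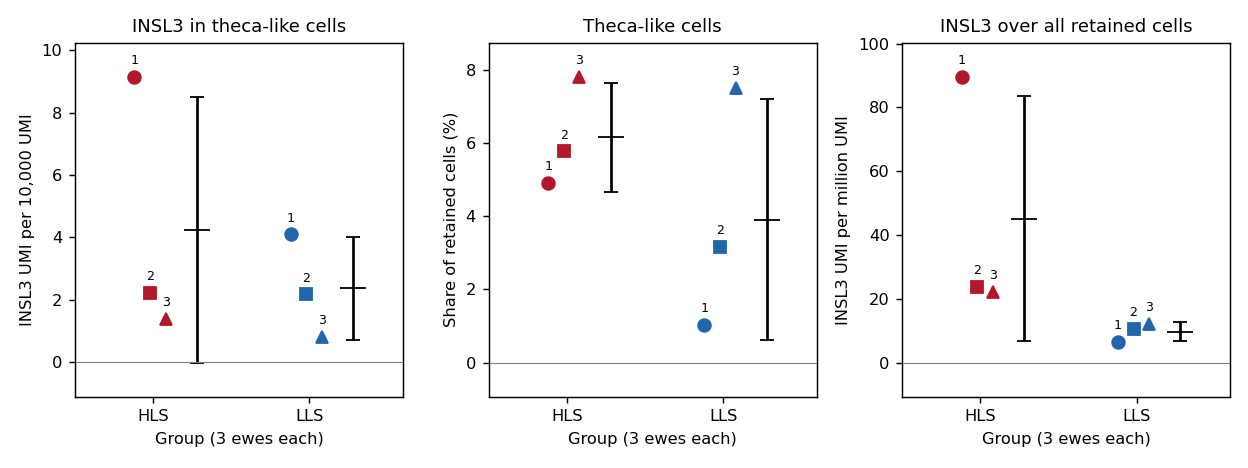
INSL3 in theca-like cells (UMI per 10000), theca-like cells as a share of retained cells (%) and INSL3 over all retained cells (CPM), with 1 numbered point per ewe and the mean with SD of each group of 3. The groups overlap in the first 2 panels, and in the third the lowest HLS ewe (22.1) lies above the highest LLS ewe (12.2).

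Among the other main types, INSL3 had enough UMI for the edgeR fit only in stromal-like cells, where it was 0.160, 0.0170 and 0.0194 UMI per 10000 in HLS ewes and 0.00558, 0.0159 and 0.0154 in LLS ewes. The groups did not overlap there, which held in the HLS direction for 4.01% of the 13750 genes tested. The gap was narrow, with 15 UMI in HLS ewe 2 and 13 in LLS ewe 2. The log2 fold change was 2.61 with an SE of 1.0 (edgeR adjusted p = 0.799), and 0.52 without HLS ewe 1. Endothelial-like cells, with 107 INSL3 UMI in all, ran from 0.00379 to 0.0255 UMI per 10000 in HLS and from 0.000962 to 0.00169 in LLS ewes, again without overlap, as for 1.79% of the 15073 genes tested there. INSL3 did not pass the filter on low counts there or in granulosa-like, perivascular-like and immune-like cells.

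The genes of androgen synthesis, the other product of the theca, were read beside INSL3 in the same fit of theca-like cells. Of the 10 listed, 9 were in the matrices, all 9 were tested and 0 were called. Their median log2 fold change was -0.33, against 0.00 over all genes, and ran from -0.81 for STAR, which moves cholesterol into mitochondria, to 0.37 for CYP17A1. CYP17A1 itself was at 5.20, 2.95 and 2.43 UMI per 10000 in HLS ewes 1, 2 and 3 and at 4.23, 0.588 and 4.81 in LLS ewes 1, 2 and 3. It was lowest in LLS ewe 2, whose INSL3 level was in the middle of the 6, and high in LLS ewe 3, where INSL3 was lowest. LHCGR was at 6.29 to 8.76 in HLS and 8.25 to 12.9 in LLS ewes (log2 fold change -0.29, SE 0.25, adjusted p = 0.978).

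At the level of cells, both transcripts were found together in 838 of the 1863 theca-like cells, INSL3 alone in 255, CYP17A1 alone in 316 and neither in 454. In LLS ewe 2 INSL3 alone was found in 49 cells and CYP17A1 alone in 14, and in LLS ewe 3 the order was turned, with 42 and 164. INSL3 was also compared within each ewe between theca-like cells with and without a UMI of each androgen or promoter gene. The level was higher in cells with SCARB1, the receptor that takes up HDL cholesterol, in 6 of 6 ewes (log2 difference 1.20 ± 0.60, SD, exact sign-flip p = 0.03125), and in cells with CYB5A, a cofactor of CYP17A1, in 6 of 6 (0.60 ± 0.49, exact sign-flip p = 0.03125). Neither passed after adjustment over the genes tested (adjusted p = 0.133). The promoter factors gave values on both sides of 0. It was higher in 1 of 6 ewes for NR4A2, an orphan receptor (-0.30 ± 0.32, exact sign-flip p = 0.0625, adjusted p = 0.133), in 2 of 6 for GATA4 (-0.17 ± 0.28), and in 3 of 6 for GATA6 (-0.05 ± 0.32). Cells with NR5A1 (-0.02 ± 0.19) and NR4A1 (0.00 ± 0.39) were higher in 2 of 6 ewes each. CYP17A1 itself gave 5 of 6 ewes (1.63 ± 1.85, exact sign-flip p = 0.0625), and HSD3B1, which makes progesterone and androstenedione, 4 of 6 (-0.08 ± 0.61). Cells with LHCGR were higher in 5 of 5 ewes (1.70 ± 0.38, exact sign-flip p = 0.0625), where the smallest p is 0.0625. Depth moved with these splits, since the median was 16807 UMI in cells with LHCGR and 2868 UMI in those without, and its part was not tested.

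Of 11 factors known to act on the INSL3 promoter, all 11 were tested in theca-like cells and 0 were called, with a median log2 fold change of 0.05 and a highest value of 0.26 for NR0B1, a repressor of steroid genes. NR5A1, the steroidogenic factor 1 that activates the promoter, was at 0.0942 ± 0.0258 UMI per 10000 in theca-like cells against 0.0195 ± 0.00649 in stromal-like and 0.0177 ± 0.00794 in granulosa-like cells (SD, n = 6), and its log2 fold change was -0.23 (SE 0.31). In contrast NR4A1, an orphan receptor that also acts on the promoter, was at 1.90 in theca-like and 3.07 in granulosa-like cells, and GATA4 was at 0.665 in theca-like, 0.582 in granulosa-like and 0.620 in stromal-like cells (means over 6 ewes, UMI per 10000). Over all retained cells NR2F2, which marks theca and stroma, was the 1 factor of 11 with an unadjusted p under 0.05 in edgeR, as 535 of all 17944 genes had. Its log2 fold change was 0.40 (SE 0.16, adjusted p = 0.999).

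Across 53 sums of an ewe and a cell type, the genes whose log2(CPM + 1) followed INSL3 most closely among 15510 genes included LOC101117493 (Pearson's r = 0.881), CYP17A1 (0.864), LOC114110643 (0.862), PRM2 (0.861), LOC114117489 (0.844), INSRR (0.843) and CSTA (0.841). These sums share libraries and depth, and the order mainly separates theca-like sums from the rest. LOC101117493 was at 0.203 ± 0.0909 UMI per 10000 in theca-like cells, and at 0.0613 or less in every other sum. INSRR, a receptor tyrosine kinase of the insulin receptor family, was at 0.197 ± 0.0798 in theca-like cells and at 0.0773 or less elsewhere (SD, n = 6). In the RefSeq table of assembly ARS-UI_Ramb_v3.0 LOC114110643 and LOC114117489 are annotated as long non-coding RNAs.

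JAK3, a cytokine receptor kinase, is the gene beside INSL3 in that table. It had 5034 UMI and was at 0.525 ± 0.116 UMI per 10000 in theca-like, 0.216 ± 0.0681 in granulosa-like and 0.201 ± 0.0585 in stromal-like cells (SD, n = 6), so its levels spread over types far more evenly than those of INSL3.

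RXFP2 was almost undetected. The 36457 retained cells held 18 RXFP2 UMI in 18 cells (0.0494%, exact 95% interval 0.0293% to 0.0780%), with 2, 5 and 1 in HLS ewes 1, 2 and 3 and 7, 1 and 2 in LLS ewes 1, 2 and 3, and all 52290 deposited barcodes held 21. None of the 1863 theca-like cells carried a UMI, and neither did any of the 2952 granulosa-like or the 2683 immune-like cells. Taken as 3 counts of the total, the limit on the share was 0.161%, 0.102% and 0.112%, and the exact 95% intervals reached 0.198%, 0.125% and 0.137%. At this depth the absence of a UMI in a cell does not show that the cell lacked the receptor.

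The few RXFP2 UMI lay in stromal-like, perivascular-like and endothelial-like cells. Pooled over ewes these types had 0.00185, 0.00147 and 0.000401 UMI per 10000, against 0.000557 over all retained cells. At 0 UMI the exact Poisson 95% intervals reached 0.00136 in theca-like and 0.00135 in granulosa-like cells, above the level over all cells. Stromal-like cells held 10 RXFP2 UMI, endothelial-like cells 6 and perivascular-like cells 2. By cluster, 6 were in the stromal-like cells led by SERPINF1 and DPT (0.00679 UMI per 10000, exact Poisson 95% interval 0.00249 to 0.0148), 5 in the endothelial-like cells led by CCL21, MMRN1 and PROX1, genes of lymphatic vessels (0.00867, 0.00282 to 0.0202), 4 in the ACTA2 and TAGLN cells, 2 in the RGS5 cells and 1 in another endothelial-like cluster. The mean level over ewes was 0.227 CPM in stromal-like cells against 0.143 CPM in the perivascular-like, which did not differ beyond the spread between ewes (log2 difference 0.11 ± 0.58, SD, 4 of 6 ewes higher in stromal-like cells, exact sign-flip p = 0.625). Against cell types at 0 the exact sign-flip p was 0.125 to 0.5. Stromal-like cells had an RXFP2 UMI in only 4 of 6 ewes, so these tests could not pass. Stromal-like cells were also made the reference because their mean was highest in the same counts. No order of types was shown.

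Between the groups RXFP2 was at 0.0356, 0.0814 and 0.0200 CPM in HLS ewes 1, 2 and 3 and at 0.102, 0.0285 and 0.0388 in LLS ewes 1, 2 and 3 (means 0.0456 ± 0.0319 and 0.0564 ± 0.0397, SD, n = 3, two-sided exact permutation p = 0.6). The groups overlapped, each value rested on 1 to 7 UMI, and RXFP2 did not pass the filter on low counts in any cell type or over all retained cells. Without that filter edgeR gave a log2 fold change of -0.26 with an SE of 0.87 over all retained cells, and DESeq2 gave -0.26 with an SE of 1.36, neither past the threshold. In the RefSeq table RXFP2 overlaps LOC101110773, which had 280 UMI in retained cells, and reads shared by both genes could not be told apart here.

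The other relaxin family genes gave the scale for these values. RXFP1, the receptor of relaxin, had 1033 UMI in 870 cells, of which the stromal-like cells held 882 (85.4%), perivascular-like cells 91 (8.81%) and theca-like cells 4. It was at 0.173, 0.152 and 0.121 UMI per 10000 in stromal-like cells of HLS ewes 1, 2 and 3 and at 0.365, 0.131 and 0.119 in those of LLS ewes 1, 2 and 3, and only LLS ewe 1 stood apart. The edgeR log2 fold change there was -0.34 (SE 0.44, adjusted p = 0.869). RXFP1 was highest in the same SERPINF1 and DPT cells (0.371, exact Poisson 95% interval 0.332 to 0.413 UMI per 10000), but in the CCL21 cluster, where 5 RXFP2 UMI lay, it had 1 UMI. Among the ligands INSL6 had 90 UMI, RLN3 12 and INSL5 2, and the peptide receptors RXFP3 and RXFP4 had 61 and 75, spread over many types.

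**Figure D5:**
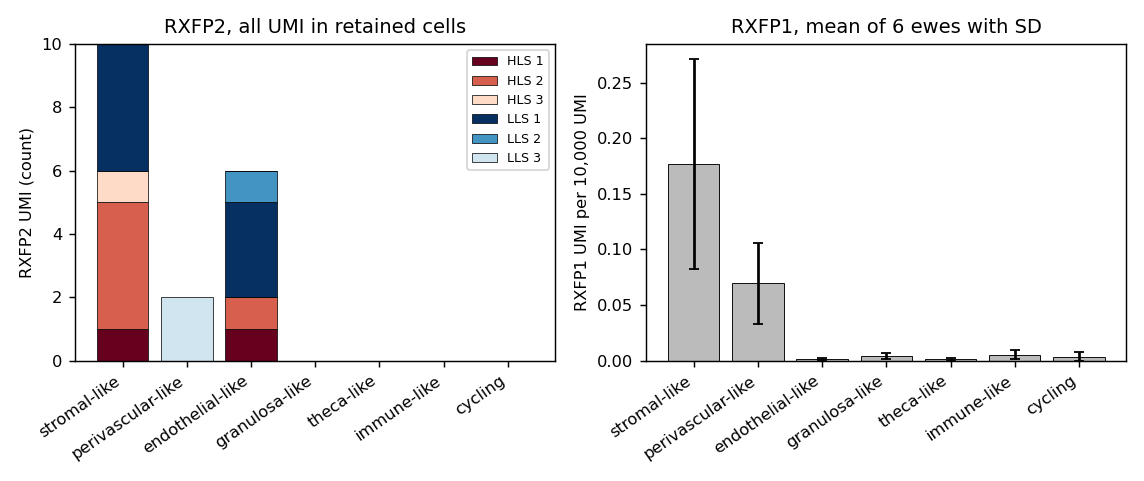
Left, all RXFP2 UMI in retained cells by cell type, as a count with 1 colour per ewe. Right, RXFP1 in UMI per 10000 UMI as the mean of 6 ewes with SD (bars cut at 0). RXFP2 has 10 UMI in stromal-like cells and 0 in theca-like and granulosa-like cells, and RXFP1 is at 0.177 in stromal-like cells and at 0.0694 in perivascular-like ones.

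Genes of the cyclic AMP pathway through which RXFP2 signals were counted in the stromal-like cells, which held most RXFP2 UMI. Of the 25 listed, 23 were in the matrices, 20 were tested and 0 were called, at a background of 0 among 13750 genes, and 4 had an unadjusted p under 0.05 against 5.18% of all genes. DESeq2 called 1 gene of all those it tested in stromal-like cells. Their median log2 fold change was -0.08 against -0.01 over all genes. These 4 were GNAO1, a G protein subunit that lowers cyclic AMP (0.51, SE 0.16), ADCY2, an adenylyl cyclase (-0.58, SE 0.25), and the phosphodiesterases PDE3A (-0.79, SE 0.30) and PDE4B (-1.01, SE 0.24), each with an adjusted p of 0.799 in edgeR. In theca-like cells 17 were tested, 0 were called and 0 had an unadjusted p under 0.05, against 3.39% of all genes there.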

How the data were processed

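Cell Ranger 5.0.0 with STAR was used by the authors, who deposited a matrix of raw UMI counts per gene and barcode for each ewe; the genome build is not given in the sources used here. Barcodes with at least 200 genes, 1000 UMI, a log10 gene to log10 UMI ratio of 0.7, at most 10% mitochondrial and 5% haemoglobin UMI were kept (38464), and 2007 resembling simulated doublets were removed. Counts were clustered (2000 variable genes without INSL3 and RXFP2, 30 components, 20 neighbours, leidenalg 0.10.2, resolution 0.8) in Python 3.11.15. Clusters were named from markers, and the scoring rule was set after the clusters were seen. A rebuilt name can differ from the study's.

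UMI were summed per ewe and type (at least 10 cells) and tested with edgeR 4.0.16 (TMM, filterByExpr, quasi-likelihood, Benjamini-Hochberg, threshold 0.05) in R 4.3.3, with DESeq2 1.42.0 as an alternative. The study tested cells as replicates, and here the ewe was the replicate. Types within ewes were compared by exact sign-flip tests, and other values by exact permutation tests. On simulated theca-like counts (12227 genes, 200 changed) edgeR recovered 50.5% of all changes and 83.0% of 4-fold changes, and on the simulated sum of all retained cells (17944 genes) 24.5% and 50.5%. False calls were 8 and 3. These are averages over genes, each simulated at its own dispersion, and do not give the power for INSL3.

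Named genes were both members, 4 lists (relaxin family, androgen synthesis, promoter factors, cyclic AMP signalling) and the 8 genes most correlated with INSL3; values of some are not reported here. The members and lists were chosen with earlier results of these data known. No sequences are shown, since no sequence file was used here.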

Additional observations from a re-analysis of the deposited data

Results flagged for a closer look

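INSL3 appeared in barcodes that were left out of the main comparisons of cell types and groups. Barcodes under 1000 UMI held 72 INSL3 UMI, above the 3 that a count of 0 allows, and 60 of them were in HLS ewe 1. Other barcodes removed by the quality limits held 492 INSL3 UMI in 185 barcodes, with 261 of these UMI in HLS ewe 3 and 118 in HLS ewe 1. Called doublets held 527 INSL3 UMI in 120 barcodes, with 236 of these UMI in HLS ewe 1. Groups of 3 ewes were too small for the check on outlying samples.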

How the results depend on the processing

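INSL3 in theca-like cells did not pass the threshold under any of the 17 alternatives. Its log2 fold change ran from -0.32 (without HLS ewe 1) to 1.88 as single ewes were left out, and was 1.501 in all cells with a CYP17A1 UMI. Without a filter on low counts its adjusted p was 0.0797, and 86 genes were called (42 higher, 44 lower), against 0; without HLS ewe 3 there was 1. The cause of these was not tested. Over all retained cells the INSL3 fold change was 1.25 to 2.84 as single ewes were left out, and DESeq2 gave 2.47 and called 88 genes (10 higher, 78 lower) against 0. In stromal-like cells it was 0.52 to 3.08 as ewes were left out, and no value was obtained at a resolution of 0.4 or in thinned cells, where INSL3 did not pass the filter.

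The replicate numbers do not pair the ewes (correlations of same-numbered deviations from -0.07 to 0.097 in theca-like cells). With the replicate number as a block the INSL3 fold change was 0.82 in theca-like cells (adjusted p = 0.996 in edgeR), 1.99 over all retained cells and 1.66 in stromal-like cells, and 0 genes were called in theca-like cells.

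Theca-like cells exceeded the next type by 3.78 to 4.93 without single ewes, where 5 ewes cannot go below an exact p of 0.0625, and by 5.83 over B cell-like cells, with 5 ewes, when doublets were kept. RXFP2 reversed between groups without HLS ewe 3 (0.00211 CPM) and without LLS ewe 1 (0.0120), with a range from -0.0286 to 0.0120 as single ewes were left out, was -0.0532 in thinned cells, and could not be fitted with library sizes alone or a block. Its stromal-like minus perivascular-like difference was -0.026 to 0.135 as single ewes other than LLS ewe 3 were left out, reversed without LLS ewe 1. Without LLS ewe 3 the next highest type was endothelial-like, and the stromal-like minus endothelial-like difference was 0.249. The share of INSL3 UMI in theca-like cells (87.4% to 92.3%) and the difference in theca-like share (0.83 to 4.28 percentage points) kept their direction under all 11 alternatives each. Sums of 41 INSL3 UMI in granulosa-like cells and 18 RXFP2 UMI in all limit what could be detected.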
